A study of Mus musculus with 32 samples.

Results

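The RFX (regulatory factor X) genes encode transcription factors that share a winged-helix DNA-binding domain. The 6 genes described here, Rfx1, Rfx2, Rfx3, Rfx4, Rfx5 and Rfx7, were chosen by symbol, without regard to their level, and all 6 were among the 20368 genes of the juvenile gene table. The data came from 28 juvenile male C57BL/6J mice, with 3 mice at 8 days postpartum (dpp) and 5 mice at each of 10, 12, 14, 16 and 18 dpp, and from 4 samples of spermatocytes of adult males of the same strain. Each juvenile sample was the enriched germ cell suspension of 1 mouse. Per the paper, further 8 dpp samples were left out after their cytology and RNA were seen, for poor concordance with mice of that age. It names too few cells as the likely reason. The spread among the 3 mice of 8 dpp is therefore that of the mice kept. Each adult sample was a pool of 6 males aged 9 weeks, from which pachytene and diplotene spermatocytes were enriched by sedimentation at unit gravity. No group carried a mutation or a treatment. Poly-A RNA was sequenced, and levels are in TPM, relative transcript abundances that are scaled by transcript length and can be compared between genes. The number of reads behind a TPM value is unknown, so no counting interval can be given.

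RFX proteins bind a DNA element called the X-box, as homodimers or heterodimers. In ciliated cells RFX2, RFX3 and RFX4 are known regulators of genes for ciliary assembly and movement, and RFX2 is known to be needed for spermatids to build a flagellum. RFX5 acts elsewhere: with RFXAP and RFXANK it forms the complex that binds the promoters of MHC class II genes. Between 8 and 18 dpp the first wave of spermatogenesis carries germ cells from spermatogonia into late meiotic prophase, and the samples of successive ages hold successively later cells.

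The markers of cell types moved with age. All 6 spermatocyte markers rose from 8 to 18 dpp, with a summed level of 250 to 372 TPM at 8 dpp, 1579 to 1823 TPM at 18 dpp and 2100 to 2277 TPM in adult spermatocytes. Sycp1, Sycp3 and Hormad1 were lower in every adult sample than in every 18 dpp mouse, while Syce1, Piwil1 and Ovol2 were higher. All 6 spermatogonium markers fell, from sums of 877 to 933 TPM at 8 dpp to 388 to 566 TPM at 18 dpp, with 27 to 32.7 TPM in the adult samples. Of 8 Sertoli cell markers 7 fell and 1 rose, and their sums were 6772 to 7619 TPM at 8 dpp, 3220 to 4197 TPM at 18 dpp and 292 to 430 TPM in the adult samples. The juvenile germ cell samples therefore held RNA of somatic cells at every age. The sums of 6 spermatid markers were 2.48 to 5.67 TPM at 8 dpp and 6.13 to 17.0 TPM at 18 dpp, with the protamine genes Prm1 and Prm2 listed at 0 in every mouse from 10 to 16 dpp. In the adult samples the same sums were 872 to 1189 TPM. The part of these shifts in the results below was not tested. From bulk RNA values alone, more cells of a type and more RNA per cell cannot be told apart. The paper also scored germ cell stages by cytology in an aliquot of each juvenile mouse. Those counts were not used here.

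Levels of all 6 genes differed among the 6 ages, against 77.6% of the genes tested (limma on log2(TPM + 1), Benjamini-Hochberg adjusted p from 4.71e-17 for Rfx4 to 0.000326 for Rfx3). Between 8 and 18 dpp, 3 members rose (Rfx2, Rfx4 and Rfx5), 2 fell (Rfx1 and Rfx7) and the test of Rfx3 did not pass. These 5 of 6 calls stand beside 68.2% of all genes called, of which 31.8% of all genes rose and 36.3% fell. Of the genes called, 46.7% were higher at 18 dpp, 55.9% with median-of-ratios scaling and 37.7% with quantile normalization. The mice of 8 and 18 dpp did not overlap in the same 5 members, as in 61.0% of all genes. In size, the changes of Rfx4 and Rfx2 exceeded those of 98.6% and 97.7% of the genes. The changes of Rfx1, Rfx5 and Rfx7 exceeded those of 53.1%, 50.2% and 38.8% of the genes. The median difference over all genes was -0.09 on the log2(TPM + 1) scale.

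**Figure D1:**
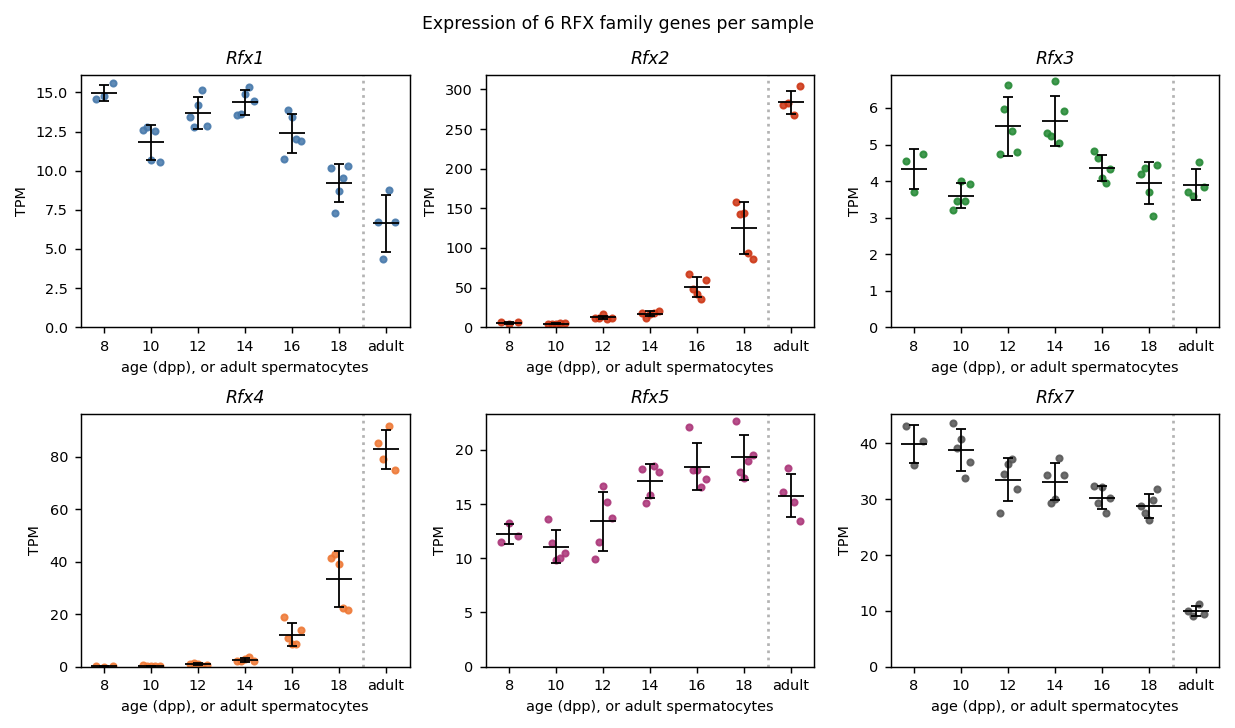
TPM (vertical axes, each from 0 and with its own scale) of the 6 RFX genes by age in dpp, with adult spermatocytes right of the dotted line. Each point is 1 sample, and bars are the mean ± SD (n = 3 at 8 dpp, 5 at the other ages, 4 adult). Rfx2 and Rfx4 climb from near 0 to their highest levels in the adult samples, and Rfx7 declines.

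RFX2, the member known for its part in spermatid differentiation, had the highest level of the 6 genes at 16 and 18 dpp. Rfx2 (ENSMUSG00000024206) lies on the minus strand of chromosome 17 (GRCm38, chr17:56775897-56831013) and overlaps no other annotated gene. Its level was 6.04, 4.55 and 6.63 TPM in the 3 mice of 8 dpp. At 10 dpp the 5 mice had 3.51, 4.33, 3.71, 5.75 and 5.93 TPM. The 8 and 10 dpp mice overlapped. At 12 dpp the levels were 11.5, 12.2, 16.1, 10.2 and 11.7 TPM, above every mouse of 10 dpp. At 14 dpp they were 17.5, 11.9, 17.0, 18.5 and 20.2 TPM. These ranges overlapped those of 12 dpp. At 16 dpp they were 66.8, 48.4, 41.9, 35.3 and 59.3 TPM. At 18 dpp the mice had 158, 143, 143, 93.8 and 86.2 TPM, and no mouse of 14, 16 and 18 dpp overlapped with a mouse of another of these ages. The mean rose 21.8-fold, from 5.74 ± 1.07 TPM (SD, n = 3) at 8 dpp to 125 ± 32.7 TPM (SD, n = 5) at 18 dpp. On the log2(TPM + 1) scale the difference was 4.19 ± 0.21 (SE; limma adjusted p = 2.76e-15).

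Rfx2 passed the test between some neighbouring ages and not between others. It rose by 1.25 ± 0.18 from 10 to 12 dpp (adjusted p = 1.42e-05, limma), by 1.49 ± 0.18 from 14 to 16 dpp (adjusted p = 6.72e-07) and by 1.29 ± 0.18 from 16 to 18 dpp (adjusted p = 4.23e-06), each as log2(TPM + 1) difference with its SE. The steps from 8 to 10 dpp (-0.27 ± 0.21, adjusted p = 0.732) and from 12 to 14 dpp (0.43 ± 0.18, adjusted p = 0.431) did not pass the test. In adult spermatocytes Rfx2 stood at 280, 283, 268 and 304 TPM, all above the 18 dpp mice. The adult samples differ from the juvenile ones in age, pooling and enrichment by sedimentation, and this difference was not tested.

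The sequence upstream of Rfx2 is shown because Rfx2 and Rfx4 both rose in the last steps, and the sequence before Rfx4 follows further on. The 250 bases before the RefSeq transcript start (GRCm38.p6, minus strand, chr17:56831009-56831258) read, with motif matches in capitals:

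Rfx2 promoter: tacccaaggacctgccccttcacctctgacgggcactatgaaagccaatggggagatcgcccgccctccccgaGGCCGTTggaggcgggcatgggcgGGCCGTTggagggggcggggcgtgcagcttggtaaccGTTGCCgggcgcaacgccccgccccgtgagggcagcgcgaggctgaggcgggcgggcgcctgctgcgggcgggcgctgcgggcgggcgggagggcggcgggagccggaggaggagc

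The capitals mark GGCCGTT, which is the motif AACNGNC read on the other strand, with its first base 177 and 153 bases before the start, and GTTGCC with its first base 116 bases before the start. AACNGNC is a motif bound by MYB factors, and GTTGCC is the core of an X-box arm. Searched on both strands of the 250 bases before each of 32851 RefSeq transcript starts, AACNGNC was found in 27.7% and GTTGCC in 10.4%. The full X-box palindrome, the arms GTNNCC and GGNNAC set 2 bases apart, was found in 1.57% of them and before none of the 7 starts of the 6 members. GTTGCC was found before 1 of these 7 starts (that of Rfx2), and AACNGNC before 5. A match is a description of the letters and no measure of binding.

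Rfx2 has 2 annotated transcripts, a long form (ENSMUST00000002444) and a short form (ENSMUST00000086801), which start 5 bases apart. The long form carries 2151 coding bases and the short form 2076. In GENCODE the difference is exon 6 of the long form (GRCm38, minus strand, chr17:56799250-56799324), a coding exon of 75 bases that the short form skips, shown whole because it is the only coding sequence by which they differ:

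Rfx2 exon 6: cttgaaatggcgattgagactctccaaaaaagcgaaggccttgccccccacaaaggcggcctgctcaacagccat

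The long form held 50%, 19.7% and 0% of the Rfx2 TPM in the mice of 8 dpp. At 10 dpp it held 75.3% and 52.4% in mice 2 and 4 and was listed at 0 in mice 1, 3 and 5. At 12 dpp the shares were 59.4%, 42.8%, 35.9%, 61.0% and 27.2%. At 14 dpp they were 100%, 41.4%, 67.8%, 59.4% and 0%, so that mice of this age spanned the whole possible range with the gene at 11.9 to 20.2 TPM. At 16 dpp the shares were 62.2%, 64.2%, 55.8%, 56.9% and 49.0%. At 18 dpp they were 76.7%, 62.2%, 72.8%, 57.0% and 74.1%. The longer form was the larger in 4 of 5 mice at 16 dpp and in all 5 at 18 dpp. Its level was at most 3.26 TPM at 8 and 10 dpp and between 53.5 and 122 TPM at 18 dpp.

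The mean share of the long form was 24.7% over the 8 mice of 8 and 10 dpp and 63.1% over the 10 mice of 16 and 18 dpp, and the difference with each age weighted equally was 38.7 ± 11.4 percentage points (SE; limma adjusted p = 0.0301 over 40928 transcripts). The long and short forms were the 2 of 28 member transcripts tested that passed, and their shares mirror each other. Over all transcripts 1.42% passed the same rule, an adjusted p under 0.05 with a change of at least 20 points, and 9.72% passed the adjusted p alone. The call was lost without 8 dpp mouse 2 or 3 or without 10 dpp mouse 1, 3 or 5 (adjusted p from 0.0557 to 0.11), and when 8 was compared with 18 dpp alone (45.3 points, adjusted p = 0.123).

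**Figure D2:**
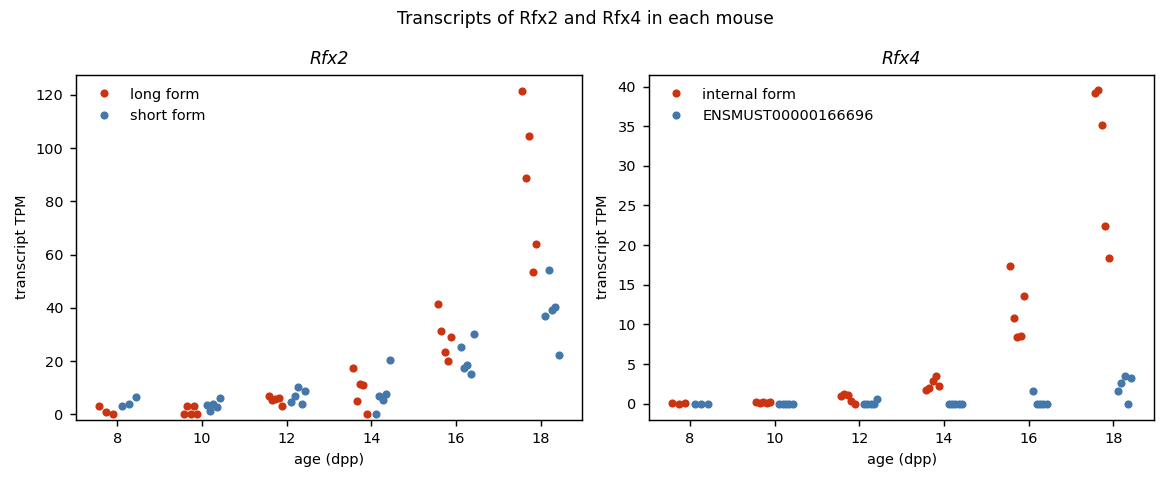
TPM of 2 transcripts each of Rfx2 (left) and Rfx4 (right) in the juvenile mice by age in dpp, 1 point per mouse. The long form of Rfx2 reaches 53.5 to 122 TPM at 18 dpp, above the short form of the same mouse, and most of Rfx4 is the internal form.

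RFX4 is known chiefly from brain and testis. Rfx4 (ENSMUSG00000020037; GRCm38, plus strand, chr10:84756062-84906538) contains a small nuclear RNA gene, Gm24226, on the other strand. It was at 0.16, 0 and 0.14 TPM in the mice of 8 dpp and at 0.08 to 0.41 TPM at 10 dpp. At 12 dpp it was at 0.92, 1.21, 1.07, 0.30 and 0.58 TPM. At 14 dpp the mice had 2.18, 1.95, 2.84, 3.5 and 2.21 TPM, above every mouse of 12 dpp. Levels of this size lie at the low end of the table, whose genes reach at least 3 TPM in some mouse. Rfx4 reached 3 TPM in 11 of 28 mice, so it entered the table through the later ages alone. At 16 dpp it stood at 19, 10.9, 8.43, 8.50 and 13.8 TPM. At 18 dpp it stood at 41.5, 42.8, 39.0, 22.4 and 21.5 TPM, with no overlap with 16 dpp. In adult spermatocytes it stood at 85.2, 79.2, 91.8 and 74.9 TPM, above all juvenile mice.

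The difference of Rfx4 between 18 and 8 dpp was 4.91 ± 0.24 (SE) on the log2(TPM + 1) scale (limma adjusted p = 1.74e-15). It depends on the pseudocount and was 7.45 with 0.1 in place of 1. Rfx4 rose by 1.85 ± 0.21 from 14 to 16 dpp (adjusted p = 1.8e-07, limma) and by 1.39 ± 0.21 from 16 to 18 dpp (adjusted p = 7.41e-06). The differences from 10 to 12 dpp (0.57 ± 0.21, adjusted p = 0.0541) and from 12 to 14 dpp (0.97 ± 0.21, adjusted p = 0.0501) fell just short of the threshold, and some other settings called them.

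Of 6 annotated transcripts of Rfx4, the internal form (ENSMUST00000095388) accounted for 94.7%, 92.3%, 89.9%, 100% and 85% of the gene at 18 dpp. At 16 dpp its share was between 91.6% and 100%. The coding transcript ENSMUST00000060397, which starts at the upstream end of the gene, never exceeded 0.59 TPM. The internal form starts 82086 bases further downstream and has 14 coding exons, 13 of them shared with the 18 of the upstream transcript. Its coding length is 1923 bases against 2205. ENSMUST00000166696, which starts between them, was above 0 in 4 of 5 mice of 18 dpp, with 1.62 to 3.46 TPM. Rfx4 had no test of transcript shares, since it lay under 3 TPM at the early ages.

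The 250 bases before the start of the internal form (RefSeq, GRCm38.p6, plus strand, chr10:84837898-84838147) are shown because most of the Rfx4 TPM belonged to a transcript that starts here:

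Rfx4 internal promoter: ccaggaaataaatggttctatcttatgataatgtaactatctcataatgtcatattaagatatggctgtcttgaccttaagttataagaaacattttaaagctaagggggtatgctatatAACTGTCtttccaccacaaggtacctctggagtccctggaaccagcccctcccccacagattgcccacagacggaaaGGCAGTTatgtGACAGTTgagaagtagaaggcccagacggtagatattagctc

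The capitals mark 3 matches to AACNGNC on either strand, whose first bases lie 130, 53 and 42 bases before the start. GTTGCC was not found in these 250 bases. The GC content was 42.0%, against 76.0% upstream of Rfx2. The upstream start of Rfx4 held 1 match to AACNGNC.

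Over the 28 mice the root mean square (RMS) difference between the centred log2(TPM + 1) values of Rfx2 and Rfx4 was 0.41. Each of these genes differed from the other 4 members by between 1.34 and 2.01, and those 4 differed among themselves by between 0.23 and 0.46. The ratio of Rfx4 to Rfx2 TPM was 0.029 to 0.099 at 12 dpp, 0.109 to 0.189 at 14 dpp, 0.201 to 0.284 at 16 dpp and 0.239 to 0.300 at 18 dpp. In the adult samples it was 0.247 to 0.342. The ranges of 16, 18 dpp and adult samples overlapped. Within 16 dpp, mouse 1 was highest and mouse 5 next in both genes. Within 18 dpp, mice 1, 2 and 3 lay above mice 4 and 5 in both.

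At 18 dpp mice 1 to 3 were also set apart from mice 4 and 5 in cell type markers, lower in those of Sertoli cells and higher in those of spermatocytes. The summed Sertoli cell markers were 3276, 3220 and 3362 TPM in mice 1 to 3 and 4143 and 4197 TPM in mice 4 and 5. The summed spermatocyte markers were 1703, 1749 and 1823 TPM in mice 1 to 3 and 1579 and 1598 TPM in mice 4 and 5. The peritubular sums were 524 to 586 TPM in mice 1 to 3 and 1006 and 1034 TPM in mice 4 and 5. Sums of Leydig, macrophage, endothelial and spermatogonium markers were likewise lower in mice 1 to 3. Those of spermatid markers were higher in mice 1 to 3, and those of red blood cells overlapped. The part of cell make-up in the spread of Rfx2 and Rfx4 was not tested. With mice 1 to 3 of every age alone, Rfx2 differed by 4.48 (adjusted p = 9.64e-12, limma) and Rfx4 by 5.26 (adjusted p = 1.07e-11) between 18 and 8 dpp on the log2(TPM + 1) scale.

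RFX3 is known from ciliated cells, where it acts beside RFX2. Rfx3 (ENSMUSG00000040929; GRCm38, minus strand, chr19:27761721-28011166) overlaps the span of an antisense gene, Gm20407, and whether their exons overlap was not checked. Rfx3 stayed between 3.04 and 6.73 TPM in all 28 mice. The mice had 4.55, 3.71 and 4.75 TPM at 8 dpp and 3.20 to 4.01 TPM at 10 dpp. At 12 dpp they had 4.74 to 6.63 TPM, above all mice of 10 dpp, and at 14 dpp 5.03 to 6.73 TPM. At 16 dpp the range was 3.95 to 4.81 TPM and at 18 dpp 3.04 to 4.45 TPM. The middle ages were therefore the highest. Rfx3 rose by 0.49 ± 0.11 from 10 to 12 dpp (log2(TPM + 1), SE; limma adjusted p = 0.00157). It fell by 0.31 from 14 to 16 dpp (SE 0.11; limma adjusted p = 0.0401), a call lost without 14 dpp mouse 3 or 7 or 16 dpp mouse 3, 4 or 5 (adjusted p from 0.07 to 0.115). Between 18 and 8 dpp the difference was -0.11 (95% interval -0.37 to 0.15; adjusted p = 0.439). Its sign turned with median-of-ratios scaling (0.03, adjusted p = 0.846), and quantile normalization called it (-0.35, adjusted p = 0.0149). Adult spermatocytes had 3.69, 3.58, 4.51 and 3.84 TPM.

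RFX1 is a broadly expressed member that can activate or repress. Rfx1 (ENSMUSG00000031706; GRCm38, plus strand, chr8:84066834-84096992), which overlaps the antisense gene C330011M18Rik, was at 14.6, 14.8 and 15.6 TPM at 8 dpp. At 10 dpp it was at 10.5 to 12.8 TPM, below all mice of 8 dpp, but this difference did not pass the test (-0.32 ± 0.10 on the log2(TPM + 1) scale, limma adjusted p = 0.134). The ranges were 12.8 to 15.2 TPM at 12 dpp, 13.6 to 15.3 TPM at 14 dpp and 10.7 to 13.9 TPM at 16 dpp. At 18 dpp the mice had 10.2, 7.32, 8.71, 9.54 and 10.3 TPM, the lowest of the juvenile levels and below every mouse of 16 dpp. Rfx1 fell by 0.39 from 16 to 18 dpp (SE 0.09; limma adjusted p = 0.00046) and by 0.65 from 8 to 18 dpp (SE 0.10; limma adjusted p = 1.98e-06). Adult spermatocytes had 6.72, 4.34, 8.75 and 6.70 TPM, overlapping the 18 dpp mice.

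RFX7 is a broadly expressed member of the family. Rfx7 (ENSMUSG00000037674; GRCm38, plus strand, chr9:72532240-72622937) overlaps 5 annotated genes, 2 of them antisense, and held the highest level of the family at 8, 10, 12 and 14 dpp. The mice of 8 dpp had 43.1, 36.2 and 40.5 TPM. The range was 33.8 to 43.6 TPM at 10 dpp, 27.6 to 37.2 TPM at 12 dpp, 29.4 to 37.3 TPM at 14 dpp and 27.5 to 32.4 TPM at 16 dpp. At 18 dpp the mice had 28.8, 27.5, 26.2, 29.9 and 31.8 TPM, all below the mice of 8 dpp. Rfx7 fell by 0.46 from 8 to 18 dpp (SE 0.10; limma adjusted p = 0.000175), and none of its differences between neighbouring ages passed the test. The difference from 10 to 12 dpp (-0.21, adjusted p = 0.0782, limma) passed with median-of-ratios scaling (-0.23, adjusted p = 0.0209) and with quantile normalization (-0.22, adjusted p = 0.0327). In adult spermatocytes it stood at 9.98, 9.07, 11.1 and 9.47 TPM, below every juvenile mouse. Its transcripts ENSMUST00000163401 and ENSMUST00000183372 held 66.6% and 27.6% of it at 16 and 18 dpp, with 60.8% and 34.0% at 8 and 10 dpp, and neither change passed (adjusted p = 0.292 and 0.251, limma).

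RFX5 is the DNA-binding subunit of the MHC class II promoter complex. Rfx5 (ENSMUSG00000005774; GRCm38, plus strand, chr3:94954075-94961561) overlaps the antisense gene B230398E01Rik. It was at 11.5, 13.3 and 12.1 TPM at 8 dpp and at 9.85 to 13.7 TPM at 10 dpp. At 12 dpp the mice spread from 9.89 to 16.7 TPM, and at 14 dpp they had 15.1 to 18.5 TPM. At 16 dpp the range was 16.6 to 22.1 TPM. At 18 dpp the mice had 22.7, 18.0, 17.4, 19 and 19.6 TPM, all above those of 8 dpp. Rfx5 rose by 0.61 ± 0.13 from 8 to 18 dpp (log2(TPM + 1), SE; limma adjusted p = 0.000162), in steps of which none passed the test by itself. Adult spermatocytes had 16.1, 18.3, 15.2 and 13.5 TPM, overlapping the 18 dpp mice. The gene lists 17 transcripts, 5 of them with a mean of at least 1 TPM, and none changed its share past the threshold (smallest adjusted p = 0.0565, limma).

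Between neighbouring ages the numbers of members called differed. From 8 to 10 dpp none passed in limma, against 1.20% of all genes (0.977% higher and 0.226% lower at the later age), and 1 of 6 members had an unadjusted p under 0.05, against 11.5% of all genes. From 10 to 12 dpp 2 members rose (Rfx2 and Rfx3), against 21.4% of all genes called (12.0% higher and 9.39% lower). From 12 to 14 dpp none passed in limma, against 0.172% of all genes (0.157% higher and 0.0147% lower), and 3 of 6 had an unadjusted p under 0.05, against 9.63% of all genes. From 14 to 16 dpp Rfx2 and Rfx4 rose and Rfx3 fell, against 24.0% of all genes (12.7% higher and 11.3% lower). From 16 to 18 dpp Rfx2 and Rfx4 rose and Rfx1 fell, against 54.0% (23.4% higher and 30.6% lower). The direction of the calls over all genes depended on scaling. Of the genes called from 10 to 12 dpp 56.2% were higher at the later age, 48.6% with median-of-ratios scaling and 52.1% with quantile normalization. Of those called from 14 to 16 dpp 53% were higher at the later age, 66.3% with median-of-ratios scaling and 41.6% with quantile normalization. From 16 to 18 dpp the shares were 43.4%, 63% and 37.8%. From 16 to 18 dpp Rfx1, Rfx2 and Rfx4 were called under both scalings, and from 14 to 16 dpp the call of Rfx3 was lost with median-of-ratios scaling (adjusted p = 0.111, limma).

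**Figure D3:**
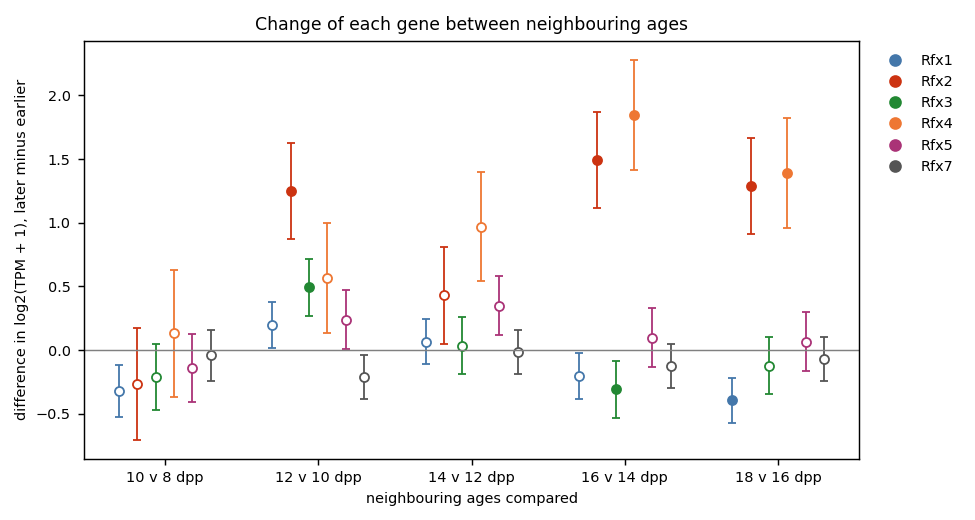
Difference in log2(TPM + 1) of each RFX gene between neighbouring ages, later minus earlier, with 95% intervals from the 6-age limma model. Filled points passed an adjusted p under 0.05 and open points did not. Rfx2 and Rfx4 stand at 1.29 to 1.85 in the last 2 steps, far from the other 4 genes.

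With these changes the make-up of the summed TPM of the 6 genes turned over. Rfx8, a family gene outside the 6, is left out of these shares and of the order below. Its mean was 46.2 TPM at 18 dpp and 146.5 TPM in adult spermatocytes, against 33.4 and 82.8 TPM for Rfx4. Rfx7 held 51.6% ± 2.10 (SD, n = 3) of the summed TPM of the 6 genes at 8 dpp, 13.7% ± 3.61 (SD, n = 5) at 18 dpp and 2.46% ± 0.23 (SD, n = 4) in adult spermatocytes. Rfx2 held 7.39% ± 1.04, 56.2% ± 4.74 and 70.4% ± 2.75 in the same groups. Rfx4 held 0.125% ± 0.109, 14.9% ± 2.33 and 20.6% ± 2.03. The sum of the 6 genes was 72.5 to 79.9 TPM at 8 dpp, 65.7 to 77.0 TPM at 10 dpp, 174 to 266 TPM at 18 dpp and 398 to 412 TPM in the adult samples.

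The order of the 6 genes also changed. At 8 dpp it was Rfx7, Rfx1, Rfx5, Rfx2, Rfx3 and Rfx4, and only Rfx2 and Rfx3 among neighbours in this order had overlapping ranges. At 14 dpp Rfx5, Rfx2 and Rfx1 overlapped in turn below Rfx7. At 16 dpp Rfx2 came first, above Rfx7 in 5 of 5 mice. At 18 dpp Rfx4 was above Rfx7 in 3 of 5 mice, mice 1 to 3, and the ranges of the pair overlapped. In adult spermatocytes the order was Rfx2, Rfx4, Rfx5, Rfx7, Rfx1 and Rfx3, with overlap only between the last pair. Among Ensembl genes whose group mean reached 3 TPM, Rfx2 was above 10.4% at 8 dpp, 88.9% at 18 dpp and 93.9% in adult spermatocytes. Rfx7 went the other way, from 61.5% to 50.9% and 27.9%.

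**Figure D4:**
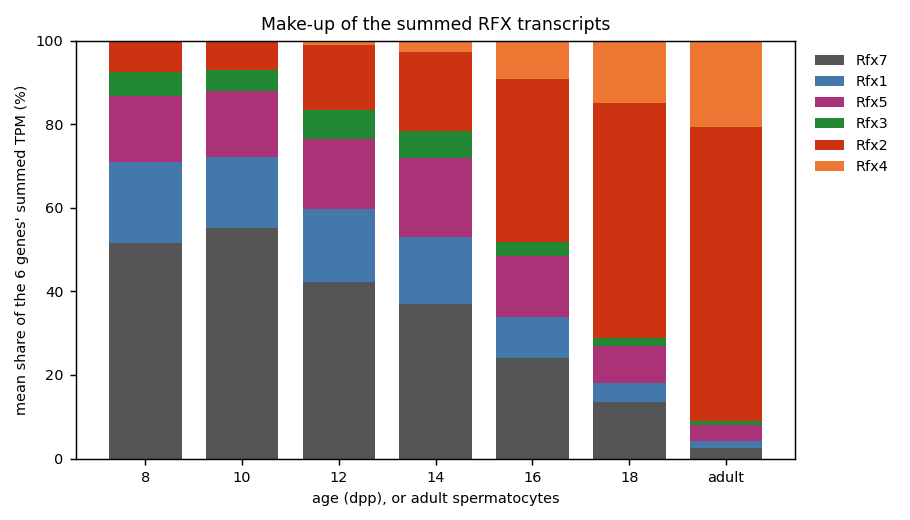
Mean share of each RFX gene in the summed TPM of the 6 genes (vertical axis, %), by age in dpp and in adult spermatocytes. Rfx7 falls from 51.6% at 8 dpp to 2.46% in adult spermatocytes, and Rfx2 grows from 7.39% to 70.4%.

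The remaining RFX genes and the partners of RFX5 were measured too. Rfx8, a little-studied member of the family, rose alongside Rfx2 and Rfx4. It was at 0.91 to 1.51 TPM at 8 dpp, at 6.46 to 15.4 TPM at 16 dpp and at 66.8, 62.9, 58.4, 21.9 and 21.0 TPM at 18 dpp. Rfx8 reached 3 TPM in 12 of 28 mice, none of them at 8 or 10 dpp. Like Rfx4, it therefore entered the table through later ages alone. Its difference between 18 and 8 dpp was 4.27 ± 0.32 on the log2(TPM + 1) scale (SE; limma adjusted p = 4.64e-12). As with Rfx2 and Rfx4, mice 1 to 3 of 18 dpp were above mice 4 and 5, and the adult samples, at 135 to 162 TPM, were above all of them. Rfx6, known from the pancreas and gut, never exceeded 0.19 TPM in the juvenile mice and was not in the gene table. Rfxap, a subunit of the RFX5 complex, rose from 30.5 to 45.8 TPM at 8 dpp to 53.9 to 66.4 TPM at 18 dpp (0.77 ± 0.12; adjusted p = 1.83e-06, limma). Rfxank, the remaining subunit, was at 10.2 to 11.0 TPM at 8 dpp and 8.32 to 10.7 TPM at 18 dpp (-0.13 ± 0.12; adjusted p = 0.311, limma).

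Of the 16 MHC regulators and MHC genes listed as the known setting of RFX5, 14 were tested. From 8 to 18 dpp 6 of them rose, 3 fell and 5 did not pass, against 31.8% of all genes higher and 36.3% lower. Their median difference was 0.35, beside -0.09 for all genes. The largest rises were those of H2-DMb1, which helps to load class II molecules (2.36 ± 0.23, adjusted p = 9.18e-10, limma), and Cd74, the class II invariant chain (1.19 ± 0.24, adjusted p = 9.01e-05). The largest falls were those of Nfyb, a subunit of the CCAAT-binding factor (-0.74 ± 0.13, adjusted p = 1.9e-05), and B2m, the light chain of class I (-0.61 ± 0.14, adjusted p = 0.000582). Ciita, the class II transactivator, stayed at or below 0.33 TPM in all mice and was not in the gene table. H2-DMb1 was at 0.36 to 0.80 TPM at 8 dpp, at 1.45 to 4.12 TPM at 16 dpp, at 5.73 to 8.32 TPM at 18 dpp and at 8.81 to 18.2 TPM in adult spermatocytes. It stayed at or below 1.66 TPM up to 14 dpp, so it entered the gene table through the later ages alone. Cd74 was at 4.6 to 5.5 TPM at 8 dpp, at 10.5 to 23.4 TPM at 16 dpp, at 8.43 to 17.8 TPM at 18 dpp and at 0 to 0.97 TPM in adult spermatocytes. Of 5 macrophage markers 4 rose from 8 to 18 dpp, with sums of 26.4 to 33.3 TPM at 8 dpp, 74.5 to 97.4 TPM at 16 dpp, 39.7 to 78.6 TPM at 18 dpp and 3.56 to 5.46 TPM in the adult samples. The part of macrophages in the levels of H2-DMb1 and Cd74 was not tested.

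Of 11 listed transcription regulators of spermatocytes and spermatids 10 were tested, and 7 rose, 1 fell and 2 did not pass. Among all genes 31.8% rose and 36.3% fell. The median difference of the list was 2.12. The largest rises were those of Sox30, a testis transcription factor (3.42 ± 0.16, adjusted p = 1.06e-15, limma), and Brdt, a testis bromodomain protein (3.38 ± 0.16, adjusted p = 8.07e-16). Taf7l, a variant subunit of TFIID, fell (-0.60 ± 0.12, adjusted p = 4.42e-05). Of 35 listed cilium and flagellum genes, the known setting of RFX2, RFX3 and RFX4, 33 were tested. From 8 to 18 dpp 32 rose and none fell, against 31.8% of all genes that rose and 36.3% that fell. Foxj1, a regulator of motile cilia, did not pass (0.29 ± 0.31, adjusted p = 0.417, limma), and the list median was 1.81. The largest rises were those of Rsph1, a radial spoke protein (6.37 ± 0.25, adjusted p = 4.3e-17), and Tekt1, a tektin of axonemal microtubules (6.01 ± 0.41, adjusted p = 9.48e-13). Rsph1 was at 13.8 to 16.9 TPM at 8 dpp and 958 to 1763 TPM at 18 dpp. Rsph4a and Sstr3 stayed at or below 0.62 TPM in the juvenile mice and were not tested. Genes near 0 at 8 dpp, such as Tekt1 (0.51 to 1.97 TPM), passed the filter of 3 TPM through later ages. These lists describe genes that changed over the same ages, and no link between a factor and a gene was measured.

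**Figure D5:**
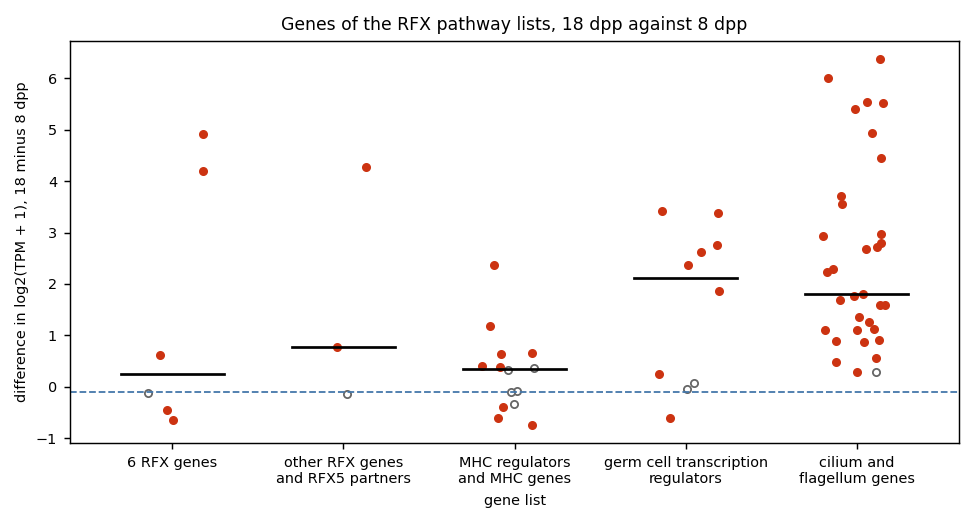
Difference in log2(TPM + 1) between 18 and 8 dpp for each tested gene of 5 lists (1 point per gene, spread sideways for sight). Filled points passed an adjusted p under 0.05, black lines are list medians and the dashed line is the median of all genes, -0.09. Of the cilium and flagellum genes 32 of 33 rose, while the 6 RFX genes and the MHC genes went in both directions. Among all genes 31.8% rose and 36.3% fell.

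For each member the genes with the most alike course over the 28 mice were sought by RMS difference of centred log2(TPM + 1), among 14895 other genes with a symbol. Nearest to Rfx2 were Syngr4 (0.12), Pdha2, the testis form of a pyruvate dehydrogenase subunit (0.20), and Hspa2, a heat shock protein of spermatocytes (0.22), where the median of all genes was 1.66. Nearest to Rfx4 were Spata33 (0.24), Ptpn20 (0.25) and the phosphodiesterase gene Pde1c (0.26), with a median of 1.90. For the flatter genes the medians were smaller. Nearest to Rfx1 were Vars, Mink1 and Map1s (0.11 to 0.12), to Rfx3 Uba6, Rab3gap2 and Pot1b (0.16 to 0.17), to Rfx5 Fbrs, Ccar1 and Rpgrip1l (0.15), and to Rfx7 Rbsn, Ppp4r2 and Rab6a (0.09), with medians between 0.345 and 0.488.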

How the data were processed

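Germ cell suspensions of 28 juvenile mice and 4 adult spermatocyte samples were analysed as labelled. Per the methods and the submitters' processing notes, the authors aligned poly-A reads with Bowtie 1.0.0 to Ensembl, NONCODE and piRNA precursor transcripts (mm10) and estimated TPM with RSEM 1.2.8, each sample by itself. The deposited transcript and adult tables hold TPM. The deposited gene table, meant as TPM, holds exp(log2(TPM + 1)) - 1, a score that was turned back to TPM here (20288 of 20368 genes then matched summed transcripts within 0.2 TPM; members within 0.02). A further deposited column with the authors' assignment of genes to substages was not used. TPM keeps no read depth, so precision rests on the mice. Adult samples differ from the juvenile ones in age, pooling and enrichment, and enter no test.

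Differences were tested with limma 3.58.1 (R 4.3.3) on log2(TPM + 1) in 1 model of 6 ages, with a trended prior variance and Benjamini-Hochberg adjustment over all 20368 genes at 0.05. Transcript shares (percent of gene TPM) were tested likewise for genes of at least 3 TPM at both ends with at least 2 transcripts of at least 1 TPM. Both tests were tested on simulated data. The simulated shares had the same spread at every age. Those of the long form of Rfx2 had an SD of 35.9 points at 10 dpp and 5.98 at 16 dpp, a setting the simulation did not cover. Gene and exon positions are from GENCODE (GRCm38), while levels rest on the authors' transcript set. Promoters are from RefSeq. All 6 members and the 4 other RFX and partner genes were named. From the other lists the 2 called genes with the largest rise and fall were named, and for each member the 3 nearest genes. The members and lists were chosen with earlier results of these data known. No label says that mice were littermates, and each p-value measures the spread between the mice kept. Numbers of mice are those of the sample titles, where 14 dpp mice are 1, 2, 3, 6 and 7, while the descriptions number the last pair 4 and 5. Alternatives were another pseudocount, filters, scalings, prior, samples and the replicate block, and, chosen after seeing the data, the block with the numbers of the descriptions.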

Additional observations from a re-analysis of the deposited data

Results flagged for a closer look

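In 64 groups of 4 or 5 samples (members, Rfx8, Rfxap, Rfxank and the shares of the long form of Rfx2 and the internal form of Rfx4), 6 had a sample set apart from the others by Dixon's test. By chance the test marks about 1 in 20 groups, a rate that does not hold for shares capped at 100%. Where all other mice are at 100%, any departure is flagged. Rfx5 in mouse 1 of 16 dpp was at 22.1 TPM against 16.6 to 18.1 TPM in the other mice. Rfxap in mouse 4 of 10 dpp was at 44.7 TPM against 34.1 to 36.8 TPM. Rfxap in adult spermatocyte sample 1 was at 70.9 TPM against 49.6 to 50.7 TPM. The internal form was listed at 0% of Rfx4 in mouse 5 of 12 dpp, where ENSMUST00000166696 held all 0.58 TPM of the gene, against 100% in the other mice. The share of the internal form was 78.0% in mouse 1 of 14 dpp against 100% in the others. In mouse 1 of 16 dpp it was 91.6% against 97.8% to 100%.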

How the results depend on the processing

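All 6 members were called among the 6 ages under 10 alternatives and without each mouse, and 5 between 18 and 8 dpp under 10 of 11 alternatives and without each mouse (6 with quantile normalization, which adds Rfx3). The median of all genes moved from -0.09 to 0.05 with median-of-ratios scaling and -0.26 with quantile normalization. From 10 to 12 dpp 2 members were called, 4 with mice 1 to 3 alone and 2 to 4 without 1 mouse. The call of Rfx7 was added with mice 1 to 3 alone (adjusted p = 0.0283) and with both other scalings. From 12 to 14 dpp 0 were called, and 1 (Rfx4) with a pseudocount of 0.1, with at least 3 TPM in 3 mice and with summed transcripts, and 0 to 1 without 1 mouse. The adjusted p of Rfx4 was then between 0.0242 and 0.0499. The 2 transcripts with a changed share became 0 in 8 against 18 dpp alone and with mice 1 to 3 alone, and 0 to 2 without 1 mouse. The causes were not tested. The share of the long form of Rfx2 differed by 32.9 to 45.4 points without 1 mouse. All genes called from 8 to 10 dpp were 245, and 129 with only the 2 ages and 131 with the block (158 with the numbers of the descriptions), and 106 to 288 without 1 mouse. From 12 to 14 dpp they were 35, and between 0 and 46 under the alternatives and 2 to 129 without 1 mouse. With 10 points 1714 transcripts were called in place of 582, and 885 in 8 against 18 dpp alone. Means of the members in adult spermatocytes moved by less than 1 SD without each sample. With 4 samples this holds for any values, so the check could not fail and says nothing about how stable these means are.

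With the replicate block, the mouse number of the titles as a term, the differences between 18 and 8 dpp were 4.26 for Rfx2 and 5.07 for Rfx4, and 5 members were called. From 14 to 16 dpp 2 were called in place of 3 (Rfx3, adjusted p = 0.117), and from 10 to 12 dpp 3 in place of 2 (Rfx4, adjusted p = 0.0316). The same 2 transcripts were called (adjusted p = 0.0195). In this block 14 dpp mice 6 and 7 share their number with no other mouse and add nothing to the comparisons. With the numbers of the descriptions, where they are 4 and 5, an alternative chosen after seeing the data, the call of Rfx3 from 14 to 16 dpp was kept and 3 members were called there. The differences were 4.22 for Rfx2 and 5.02 for Rfx4, and Rfx4 from 10 to 12 dpp had an adjusted p of 0.0471. No sign was seen that the numbers of the titles pair the mice. Deviations from the age means of same-numbered mice had correlations of -0.248 to 0.253, with 3 of 57 pairs over 0.1. Those of differently numbered mice were -0.324 to 0.242, with 15 of 268 pairs over 0.1. TPM gives no depth, so low levels such as Rfx4 before 14 dpp carry an unknown counting error.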
